A study of Oryza sativa with 27 samples.

Results

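PBZ1, OsWRKY76, CYP71Z7 and OsCPS2 are 4 defence genes of rice (Oryza sativa) whose signal was high in the ovary 1 day after pollination. They were chosen by name, with their changes after pollination in these data already known, and are 4 of the 17905 genes that a probe set of the array reaches. Each has 1 probe set, and all 4 probe sets passed the filter on low values. Ovaries with their embryo sacs were taken from field-grown plants, either unpollinated or 1, 2, 3 or 4 days after pollination (DAP). Each ovary was cut into a smaller bottom part, which holds the embryo, and a larger top part, which is mainly endosperm once fertilised. No cultivar, mutation or treatment other than pollination is named in the labels, and the unpollinated parts are the reference. The 27 arrays form 10 groups. Only the top groups of the first 3 days hold 2 arrays, and the other 7 groups hold 3. Replicates are named as biological in the titles, but the plants behind them are not given, so p-values measure only the spread between these samples.

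PBZ1 encodes a protein of the PR10 family of pathogenesis-related proteins and is a widely used marker of the rice defence response. OsWRKY76 is a WRKY transcription factor, known as a repressor of defence genes, phytoalexin genes among them. OsCPS2 and CYP71Z7 belong to the diterpenoid phytoalexins, antimicrobial compounds that rice makes when attacked. OsCPS2 is the cyclase that makes ent-copalyl diphosphate for this branch, and CYP71Z7 is a cytochrome P450 that oxidises a later intermediate. In rice several genes of this pathway lie side by side in clusters, and OsCPS2 and CYP71Z7 are in the one on chromosome 2. PBZ1 is on chromosome 12 and OsWRKY76 on chromosome 9 of the RefSeq assembly ASM3414082v1.

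All values are intensities relative to the 75th percentile of the same array, which equals 1. Log2 changes were taken on log2(value + 0.13), which understates changes from low values. Correlation between arrays of a group ran from 0.863 to 0.978. Bottom replicate 3 at 3 and 4 DAP lay farthest from its group mean, with root mean square log2 deviations of 0.516 and 0.484. Bottom replicate 3 at 2 DAP, at 0.367, was within the range of the other arrays of groups of 3 (0.204 to 0.379). One of 2 control probe sets for 18S ribosomal RNA ran from 0.218 to 42.7, and that highest value was on bottom replicate 3 at 4 DAP. In these bulk samples fewer cells of a type and less RNA per cell cannot be told apart. Summed signal of 11 endosperm markers, 9 of which passed the filter, was at most 41.7 in the top part before pollination. It was 164 to 262 there at 4 DAP, and 60.1 to 122 in the unpollinated bottom part. Not each of these markers rose: in the top part at 4 DAP SWEET4 had changed by -0.64 and GluA2 by 0.01, neither called. The summed signal of 3 photosynthetic pericarp markers was 31.0 to 54.8 in the top part before pollination, 9.32 to 11.9 at 1 DAP and 137 to 147 at 4 DAP. In the bottom part it was 16.8 to 20.9 before pollination and 71.2 to 105 at 4 DAP. Summed signal of 7 embryo markers, 6 of which passed the filter, was 24.3 to 31.7 in the unpollinated bottom part and 9.44 to 14.2 there at 4 DAP. Of these markers OSH1 and OSH6 were called lower there at 4 DAP, and LFL1, VP1 and ROC1 higher. The part of these tissues in the results below was not tested.

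PBZ1 stayed far above its unpollinated level on all 4 days in both parts. In the bottom part its 3 values were 0.282, 0.232 and 0.278 before pollination and 92.5, 89.9 and 91.7 at 1 DAP. Later they were 78.0, 89.3 and 75.5 (2 DAP), then 59.3, 57.0 and 75.3 (3 DAP), and finally 95.3, 66.6 and 58.6 (4 DAP). Every pollinated bottom array was thus far above every unpollinated one, and the values at 4 DAP overlapped those at 1 DAP, while those at 2 and 3 DAP lay below them. Top values were 0.115, 0.0800 and 0.187 before pollination, 51.8 and 48.3 at 1 DAP, and 43.2 and 19.8 at 2 DAP. They were 8.45 and 41.1 at 3 DAP, then 15.9, 41.2 and 51.3 at 4 DAP. The top arrays were also far above their unpollinated values on every day, but arrays of one day differed more from each other than in the bottom part.

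The log2 change of PBZ1 from the unpollinated bottom part was 7.86 ± 0.43 (SE) at 1 DAP, the largest rise among the 29332 probe sets tested, and 7.52 ± 0.43 at 4 DAP. For the top part it was 7.63 ± 0.48 at 1 DAP and 7.0 ± 0.43 at 4 DAP. These changes chose the gene and are given without a test. The mean at 3 DAP was 69.9% of that at 1 DAP in the bottom part and 49.5% in the top part, and at 4 DAP 80.4% and 72.2%. Leaving out single arrays moved the change at 3 DAP in the top part between 5.08 and 7.35.

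OsWRKY76 was already measurable before pollination and in the bottom part rose less than the other genes. In the top part its log2 rise was below that of PBZ1 on every day, but above those of CYP71Z7 and OsCPS2 from 2 DAP on. Its bottom values were 3.30, 1.93 and 6.29 before pollination, 32.3, 11.1 and 22.0 at 1 DAP, and 29.2, 18.7 and 8.50 at 2 DAP. They were 14.0, 2.77 and 5.33 at 3 DAP and 13.6, 2.46 and 7.04 at 4 DAP. Both later groups overlapped the unpollinated bottom group. Its top values were 1.22, 0.366 and 0.759 before pollination, 22.8 and 12.5 at 1 DAP, and 14.2 and 19.3 at 2 DAP. They were 8.94 and 2.08 at 3 DAP and 5.49, 6.66 and 4.68 at 4 DAP, all above the highest unpollinated top value.

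The log2 change of OsWRKY76 from the unpollinated bottom part was 2.49 ± 0.67 at 1 DAP and 0.83 ± 0.67 at 4 DAP. The top changes were 4.34 ± 0.75 and 2.76 ± 0.67. The means at 4 DAP were 35.3% of those at 1 DAP in the bottom part and 31.7% in the top part, where the unpollinated means were already 17.6% and 4.42% of those at 1 DAP.

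CYP71Z7 rose steeply and then dropped. Its bottom values were 0.103, 0.154 and 0.122 before pollination, 13.5, 13.7 and 25.5 at 1 DAP, and 4.56, 7.81 and 2.02 at 2 DAP. They were 1.96, 2.62 and 0.525 at 3 DAP and 10.1, 4.05 and 0.364 at 4 DAP. All pollinated bottom arrays lay above the unpollinated ones, and the lowest value on each of the last 3 days was on replicate 3. For the top part they were 0.0897, 0.0754 and 0.168 before pollination, 11.1 and 7.49 at 1 DAP, and 1.90 and 0.580 at 2 DAP. They were 0.137 and 0.118 at 3 DAP and 0.161, 0.195 and 0.288 at 4 DAP, which overlapped the unpollinated top group.

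OsCPS2 had a similar course. Its bottom values were 0.104, 0.181 and 0.107 before pollination, 9.66, 9.23 and 13.4 at 1 DAP, and 3.69, 6.16 and 2.00 at 2 DAP. They were 1.59, 2.19 and 0.732 at 3 DAP and 5.91, 2.95 and 0.421 at 4 DAP. Again replicate 3 was lowest on the last 3 days. Top arrays gave 0.0653, 0.122 and 0.237 before pollination, 6.46 and 3.83 at 1 DAP, and 1.07 and 0.342 at 2 DAP. They were 0.117 and 0.0869 at 3 DAP, then 0.100, 0.0869 and 0.310 at 4 DAP. All but the last of these lay within the unpollinated range.

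**Figure D1:**
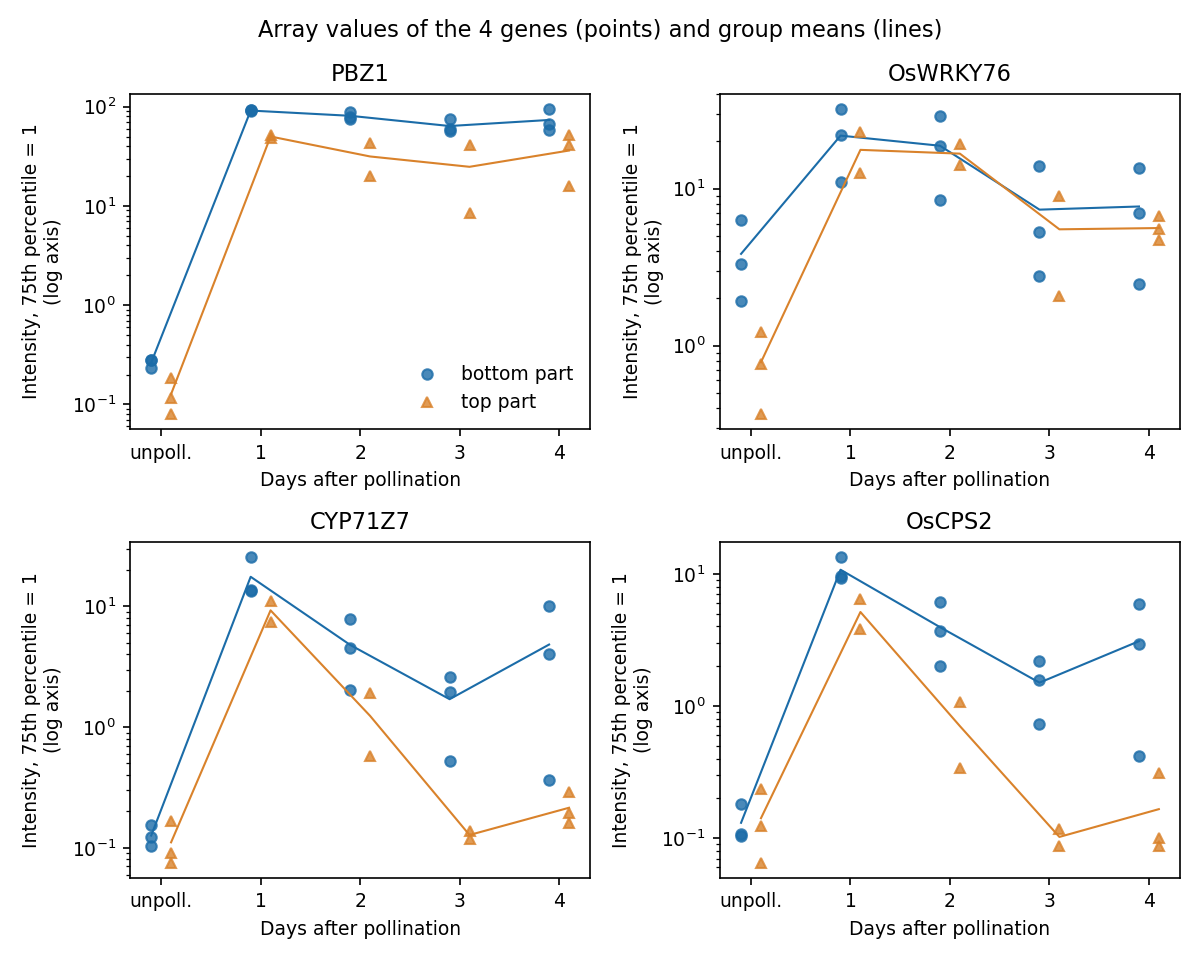
Intensity of the 4 genes on each array (points; log axis, 75th percentile of the array = 1) against days after pollination, with lines through the group means, for the bottom part (circles) and the top part (triangles). PBZ1 stayed high to 4 DAP in both parts, while CYP71Z7 and OsCPS2 in the top part returned to the unpollinated range by 3 DAP.

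The log2 change of CYP71Z7 in the bottom part was 6.05 ± 0.73 at 1 DAP, 4.08 at 2 DAP, 2.61 at 3 DAP and 3.44 ± 0.73 at 4 DAP. Its top changes were 5.28 ± 0.82, 2.34, 0.12 and 0.52 ± 0.73. For OsCPS2 the changes were 5.38 ± 0.61, 3.85, 2.55 and 3.07 ± 0.61 in the bottom part and 4.28 ± 0.68, 1.52, -0.18 and 0.09 ± 0.61 in the top part. The mean of CYP71Z7 at 4 DAP was 27.4% of its 1 DAP mean in the bottom part and 2.31% in the top part, and that of OsCPS2 was 28.8% and 3.22%. The bottom shares rest on single arrays: with 1 array left out, the log2 difference of 4 from 1 DAP ran from -3.56, without replicate 1 at 4 DAP, to -1.37, without replicate 3, for CYP71Z7, and from -3.04 to -1.31 for OsCPS2. By this measure PBZ1 kept the largest share and the phytoalexin genes of the top part the smallest.

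**Figure D2:**
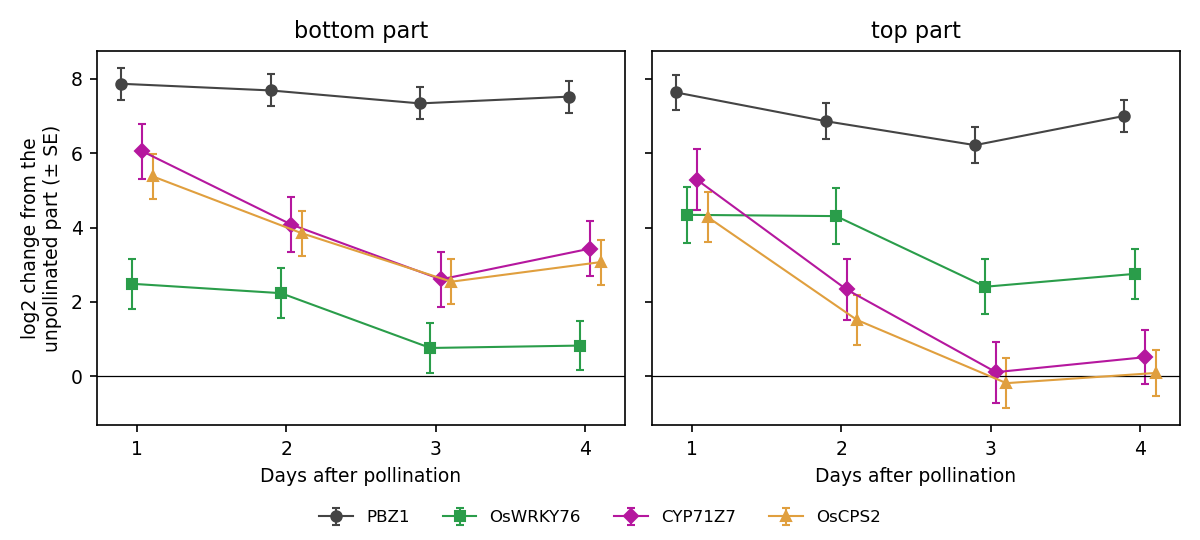
Log2 change from the unpollinated group of the same part (± SE from the fit of 10 group means) against days after pollination for the 4 genes, bottom part on the left and top part on the right. In the top part PBZ1 stayed near 7.0 at 4 DAP while CYP71Z7 and OsCPS2 were at 0.52 and 0.09.

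Persistence after the first day was tested by comparing the later days with each other. The unpollinated and 1 DAP group means do not enter these contrasts, but their arrays helped set the estimate of spread, and the later values were known when the genes were chosen. In limma with Benjamini-Hochberg adjustment over all 29332 probe sets, no change of the 4 genes between 2, 3 and 4 DAP passed in either part. From 2 to 4 DAP, 2.41% of all probe sets passed in the bottom part and 5.65% in the top part. From 2 to 3 DAP the shares were 0.0682% and 2.20%, and from 3 to 4 DAP 0.0102% and 0.181%. Few probe sets of any kind passed in the bottom part between neighbouring days. PBZ1 changed by -0.17 ± 0.43 in the bottom part (95% interval -1.06 to 0.73, adjusted p = 0.948) and by 0.14 ± 0.48 in the top part (-0.86 to 1.14, adjusted p = 0.956). For OsWRKY76 the differences were -1.41 ± 0.67 (-2.80 to -0.02, adjusted p = 0.411) and -1.55 ± 0.75 (-3.10 to -5e-04, adjusted p = 0.302). CYP71Z7 had -0.64 ± 0.73 in the bottom part (-2.17 to 0.89, adjusted p = 0.839) and -1.82 ± 0.82 in the top part (-3.53 to -0.11, adjusted p = 0.262). OsCPS2 had -0.77 ± 0.61 (-2.04 to 0.49, adjusted p = 0.717) and -1.42 ± 0.68 (-2.84 to -0.01, adjusted p = 0.297). From 2 to 3 DAP in the top part OsWRKY76 changed by -1.90 (-3.60 to -0.20) and CYP71Z7 by -2.22 (-4.09 to -0.35). OsCPS2 changed there by -1.70 (-3.24 to -0.15) and PBZ1 by -0.64 (-1.74 to 0.45). The bottom changes were -1.47, -1.47, -1.30 and -0.35 in the same order. A change that did not pass thus does not show a held level. In the top part the arrays of 2 and 4 DAP did not overlap for OsWRKY76, CYP71Z7 and OsCPS2. The share of all probe sets without such overlap was not counted, and groups this small can separate easily, so this is a description only. These 3 comparisons pass in some other fits of the same data (OsWRKY76 at an adjusted p of 0.00615 with only the arrays compared).

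Whether the change from 2 to 4 DAP differed between top and bottom was also tested. The contrast passed for 0 of the 4 genes in limma, each with an adjusted p of 0.9999, where 0.0136% of probe sets passed. It was 0.31 ± 0.64 for PBZ1, -0.14 ± 1.00 for OsWRKY76, -1.17 ± 1.10 for CYP71Z7 and -0.65 ± 0.91 for OsCPS2. These intervals are wide, and a difference of 2 log2 units lies inside that of CYP71Z7 (-3.47 to 1.12).

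Top against bottom passed at 4 DAP for both phytoalexin genes, at 3 DAP for OsCPS2 and PBZ1, and before pollination for OsWRKY76. OsCPS2 was lower in the top part by -2.70 ± 0.68 at 3 DAP (limma, adjusted p = 0.0239), a call that 3 of 5 single-array omissions end (adjusted p up to 0.209), and by -2.96 ± 0.61 at 4 DAP (adjusted p = 0.00986). CYP71Z7 was lower by -3.02 ± 0.73 at 4 DAP (adjusted p = 0.0300), while its -2.60 ± 0.82 at 3 DAP did not pass (adjusted p = 0.0673). The top and bottom arrays of both genes did not overlap at 1, 2, 3 or 4 DAP, but the share of all probe sets without such overlap was not counted. Without bottom replicates 3 of the last 3 days both genes pass at 2 DAP as well (adjusted p = 0.00639 for CYP71Z7 and 0.00162 for OsCPS2). With all arrays the difference between the parts passed in limma for 4.06%, 1.49%, 5.36% and 2.56% of all probe sets on the 4 days. The call at 4 DAP is lost without bottom replicate 1 for CYP71Z7 (-2.08, adjusted p = 0.128) and OsCPS2 (-2.22, adjusted p = 0.0621), and in 4 other single-array omissions for CYP71Z7 and 2 for OsCPS2. Without bottom replicate 3 the differences were -4.26 and -3.95.

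PBZ1 was lower in the top part at 3 DAP by -1.76 ± 0.48 (limma, adjusted p = 0.0362), but by -0.62 without top replicate 1. The call held in only 7 of 15 other limma fits. It was lost with no filter (adjusted p = 0.0571), under quantile normalization (adjusted p = 0.0584) and with only the arrays compared (adjusted p = 0.475), among others. Its differences at 1, 2 and 4 DAP (-0.87, -1.46 and -1.15) did not pass, with adjusted p of 0.433, 0.171 and 0.179. OsWRKY76 was lower in the unpollinated top part by -2.08 ± 0.67 (adjusted p = 0.0387), where 15.0% of probe sets passed, and 4 of 6 single-array omissions end that call. After pollination its parts differed by -0.23, -0.01, -0.44 and -0.16 on the 4 days, with adjusted p from 0.791 to 0.999 and overlapping arrays.

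CYP71Z7 and OsCPS2 moved together array by array. Over the 27 arrays, which share the day and part of each sample, their log2 values had a Pearson correlation of 0.992 (Spearman 0.954, and 0.989 without the 2 farthest arrays). Within groups, after the group mean was taken off, it was 0.970. The other pairs of the 4 genes had 0.654 to 0.705 over the arrays and -0.185 to 0.298 within groups. These are descriptions of the arrays.

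**Figure D3:**
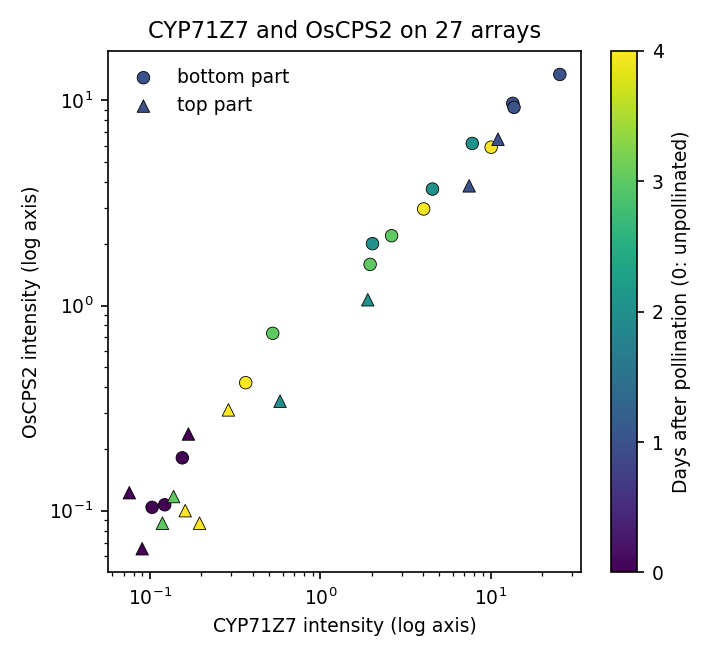
OsCPS2 against CYP71Z7 intensity on the 27 arrays (both log axes), with circles for the bottom part, triangles for the top part and colour for the day. The points lie along one line from the unpollinated arrays near 0.1 to the 1 DAP bottom arrays above 9.

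The pattern over the 10 group means most like CYP71Z7, among 2164 genes with an informative name, was that of OsCPS2 (r = 0.994), followed by HAK5 (0.993), CPS4 (0.991), CYP99A3 (0.989) and MAS (0.983). For OsCPS2 the list was CYP99A3 (0.996), CYP71Z7, HAK5 (0.988), CPS4 (0.987) and MAS (0.978). PBZ1 was most like OsNrx1-1 (0.993), OsPID (0.973), CRK6 (0.964), NAC067 (0.963) and OsUAH (0.961). OsWRKY76 was most like JAZ8 (0.960), CML31 (0.960), OPR10 (0.958), GRXS5 (0.949) and ARF10 (0.941). These lists share no gene between PBZ1, OsWRKY76 and the phytoalexin pair.

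Other genes of the phytoalexin pathway were also called higher at 1 DAP in both parts, and on later days in the bottom part. The contrast of top with bottom in that change was tested separately and passed for none of them. Of 16 other genes of diterpenoid phytoalexin synthesis, 15 had a probe set and 10 were tested. All 10 rose at 1 DAP in the bottom part, where 7.80% of probe sets were called higher, and all 10 in the top part, where 9.83% were. In the bottom part 7, 5 and 7 of the 10 were still higher at 2, 3 and 4 DAP, beside 7.80%, 8.34% and 12.0% of all probe sets. Limma called in the top part 0 of 10 at 2, 3 and 4 DAP, against 10.2%, 14.1% and 18.1% of all probe sets, and 2, 0 and 1 had an unadjusted p under 0.05. Genes that are low before pollination pass the filter only through the groups where they are high. The 10 of 10 at 1 DAP, and the 7, 5 and 7 of 10 later in the bottom part, are thus in part set by the filter. They support nothing by themselves. Without the filter 12 of the 15 were called higher at 1 DAP in each part. The 5 at 3 DAP in the bottom part is the least steady count: leaving out single arrays gives 0 to 5, and a fit of the bottom arrays with the replicate number as a block gives 3.

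CYP701A8, a cytochrome P450 related to the kaurene oxidases, rose by 4.63 ± 0.45 in the bottom part at 1 DAP (limma, adjusted p = 3.195e-07), from a mean of 0.124 ± 0.0163 to 6.56 ± 2.67 (SD, n = 3). CYP99A2, a P450 of the momilactone cluster, rose by 4.17 ± 0.45 (adjusted p = 1.091e-06). The median change of the 10 genes was 3.15, 1.53, 0.78 and 1.23 on the 4 days in the bottom part. The top medians were 2.18, 0.45, -0.01 and 0.12, while the median of all probe sets stayed between -0.06 and 0.01. Against 1 DAP, in a comparison added after these results were seen, 5, 10 and 9 of the 10 were lower at 2, 3 and 4 DAP in each part. Of all probe sets 0.467%, 3.83% and 4.08% were lower in the bottom part and 0.266%, 4.06% and 6.47% in the top part. Genes that pass the filter through high values at 1 DAP are chosen to be high there. These counts of falls from 1 DAP are thus also in part set by the filter and support nothing by themselves. At 4 DAP 6 of the 10 were lower in the top than in the bottom part (1.29% of all probe sets). High values of the bottom part helped such genes pass the filter, so this count too supports nothing by itself. The contrast of top with bottom in each gene's change from unpollinated, also added later, passed for 0 of 10 in limma on any day, with 1, 4, 2 and 7 at an unadjusted p under 0.05 on the 4 days. Of all probe sets 1.05%, 1.52%, 4.01% and 3.69% passed.

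**Figure D4:**
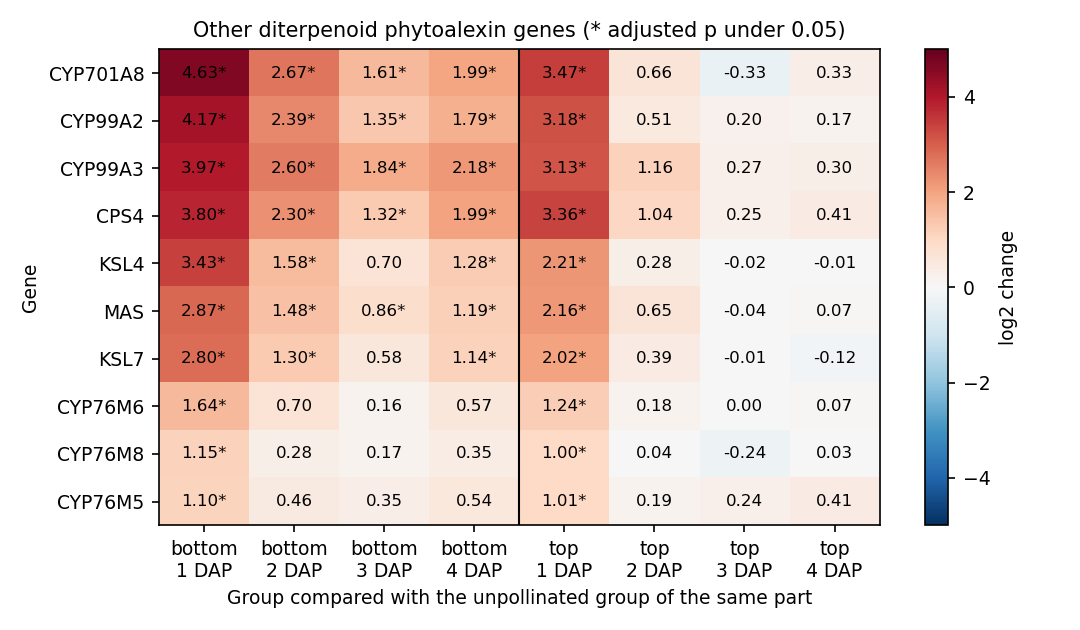
Log2 change from the unpollinated group of the same part for the 10 tested diterpenoid phytoalexin genes other than CYP71Z7 and OsCPS2 (rows), by part and day (columns), with an asterisk at an adjusted p under 0.05 in limma. All 10 genes carry it at 1 DAP in both parts, and none does in the top part from 2 DAP on.

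Among 4 tested genes of diterpene precursors and early gibberellin synthesis, DXR, an enzyme of the plastid isoprenoid route, rose by 1.62 ± 0.34 in the bottom part at 1 DAP (limma, adjusted p = 0.00257). It was the only one of the 4 that passed upward in any comparison with the unpollinated stage. CPS1, the cyclase of the gibberellin branch, fell by 1.42 in the bottom part at 4 DAP (adjusted p = 0.00153), and KO1, the kaurene oxidase of that branch, fell by 0.93 at 3 DAP (adjusted p = 0.00254). The call for KO1 held in 17 of 18 other limma fits (adjusted p up to 0.0962).

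Few other defence regulators were called higher, and in the bottom part more were called lower from 2 DAP on. Of 13 tested, 2, 1, 0 and 0 were higher and 1, 3, 4 and 3 lower on the 4 days in the bottom part. The corresponding top counts were 3, 2, 1 and 1 higher and 1, 1, 2 and 2 lower. Of all probe sets 7.80%, 7.80%, 8.34% and 12.0% were higher in the bottom part on these days and 9.83%, 10.2%, 14.1% and 18.1% in the top part, so most counts of higher genes are near the background. Of all probe sets 5.60%, 6.44%, 7.66% and 8.34% were lower in the bottom part on these days and 7.45%, 8.26%, 11.1% and 16.5% in the top part. The 3, 4 and 3 of 13 lower in the bottom part at 2, 3 and 4 DAP lay above these shares. The other counts of lower genes were near them. WRKY62, the gene next to OsWRKY76, rose by 2.92 ± 0.70 in the top part at 1 DAP (limma, adjusted p = 0.00619) and was at -0.02 there at 4 DAP (adjusted p = 0.983). Its call at 1 DAP held in 14 of 15 other limma fits and was lost without top replicate 1. MAPK5, a mitogen-activated protein kinase, rose by 2.51 ± 0.45 in the top part at 2 DAP (adjusted p = 6.202e-04). NH1, the rice counterpart of the salicylate coactivator NPR1 of Arabidopsis, fell by 3.33 in the top part at 4 DAP (adjusted p = 3.420e-06), and its relative NH3 fell by 1.68 (adjusted p = 1.696e-04).

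Among 22 tested jasmonate genes, 1, 1, 0 and 1 were higher and 0, 0, 4 and 6 lower in the bottom part on the 4 days. The top counts were 3, 4, 1 and 3 higher and 0, 0, 0 and 2 lower. Read against the shares of all probe sets given above, most of these counts were near or below the background, except the 4 and 6 lower in the bottom part. JAZ8, a repressor of jasmonate responses, rose by 2.82 ± 0.61 in the top part at 2 DAP (limma, adjusted p = 0.00289), and OPR1, an oxophytodienoate reductase, by 2.32 ± 0.48 in the bottom part at 1 DAP (adjusted p = 0.00221). The call for JAZ8 held in 14 of 15 other limma fits and was lost with only the arrays compared (adjusted p = 0.0722). JAZ9 fell by 3.11 and AOC, allene oxide cyclase, by 2.11 in the bottom part at 4 DAP (adjusted p = 0.0196 and 0.0126). These calls held in 14 of 18 other limma fits for JAZ9 and 16 of 18 for AOC (adjusted p up to 0.0679 and 0.0801). Each loss followed the omission of a single array. Of 8 phenylpropanoid genes, 3, 1, 0 and 1 were higher in the bottom part and 3, 3, 2 and 3 in the top part, beside 7.80% and 9.83% of all probe sets at 1 DAP. One was lower, in the top part at 4 DAP. PAL06, a phenylalanine ammonia-lyase, rose by 4.23 ± 0.59 in the top part at 1 DAP (adjusted p = 4.426e-05). CHS1, chalcone synthase, rose by 2.81 ± 0.35 there at 4 DAP (adjusted p = 3.437e-06), whereas 4CL1 fell by 0.62 (adjusted p = 0.0221). The call for 4CL1 held in 13 of 16 other limma fits (adjusted p up to 0.172). A list of other pathogenesis-related proteins held 1 tested gene, CEBIP, a chitin receptor, and it passed in no comparison with the unpollinated stage.

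Some genes beside PBZ1 and beside the phytoalexin pair rose as well. Among the 5 genes on either side of PBZ1 in the RefSeq order, 7 were tested, and 3 of them were called higher at 1 DAP in each part, beside 7.80% and 9.83% of all probe sets. A gene low before pollination passes the filter only through its later high values. This count is thus in part set by the filter and supports nothing by itself. CSLD4, adjacent on one side, rose at 1 DAP by 1.64 ± 0.18 in the bottom part (limma, adjusted p = 1.741e-06). In the top part it rose by 1.97 ± 0.21 (adjusted p = 1.947e-06). LOC4352490, adjacent on the other side, was at -0.34 in the bottom part at 1 DAP. LOC4352494 was at 0.09 there, LOC4352495 at 1.28 and LOC4352496 at 0.48, and none of these was called. LOC4352487 rose by 6.78 ± 0.50 (limma, adjusted p = 7.317e-09) and LOC4352488 by 6.21 ± 0.35 (adjusted p = 2.211e-10) in the bottom part at 1 DAP. Their mean values went from 0.301 ± 0.0372 to 47.8 ± 8.74 and from 0.120 ± 0.00745 to 18.8 ± 5.36 (SD, n = 3). At 4 DAP they were still higher by 5.39 and 4.73 in the bottom part and by 3.12 and 2.75 in the top part. PBZ1 and similar genes nearby can share probe signal, and this was not tested. Beside CYP71Z7 and OsCPS2, KSL7, a diterpene synthase of this cluster, rose by 2.80 ± 0.33 (adjusted p = 4.031e-06), LOC4329723 by 3.62 ± 0.48 (adjusted p = 1.460e-05) and CYP76M6, another P450 of the cluster, by 1.64 ± 0.26 (adjusted p = 1.423e-04), all in the bottom part at 1 DAP, where 7.80% of all probe sets were called higher. KSL7 and CYP76M6 are among the tested phytoalexin genes already counted above, so their rises are no separate support. Around OsWRKY76, CIPK16 rose by 1.36 ± 0.43 in the top part at 4 DAP (limma, adjusted p = 0.0178), and LOC4347073 and LOC4347068 fell by 1.50 and 0.71 there (adjusted p = 7.721e-06 and 0.0436). Of all probe sets 18.1% were called higher and 16.5% lower there. LOC4347073 was already called lower at 1 DAP, by -0.85 in the bottom part and -1.16 in the top part. LOC4347065 was called higher in the top part at 1, 2 and 3 DAP (1.06, 1.00 and 0.74), beside 9.83%, 10.2% and 14.1% of all probe sets. The call for LOC4347068 is lost in 5 of 6 single-array omissions, with adjusted p up to 0.176. That for CIPK16 held in 13 of 16 other limma fits (adjusted p up to 0.143).

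**Figure D5:**
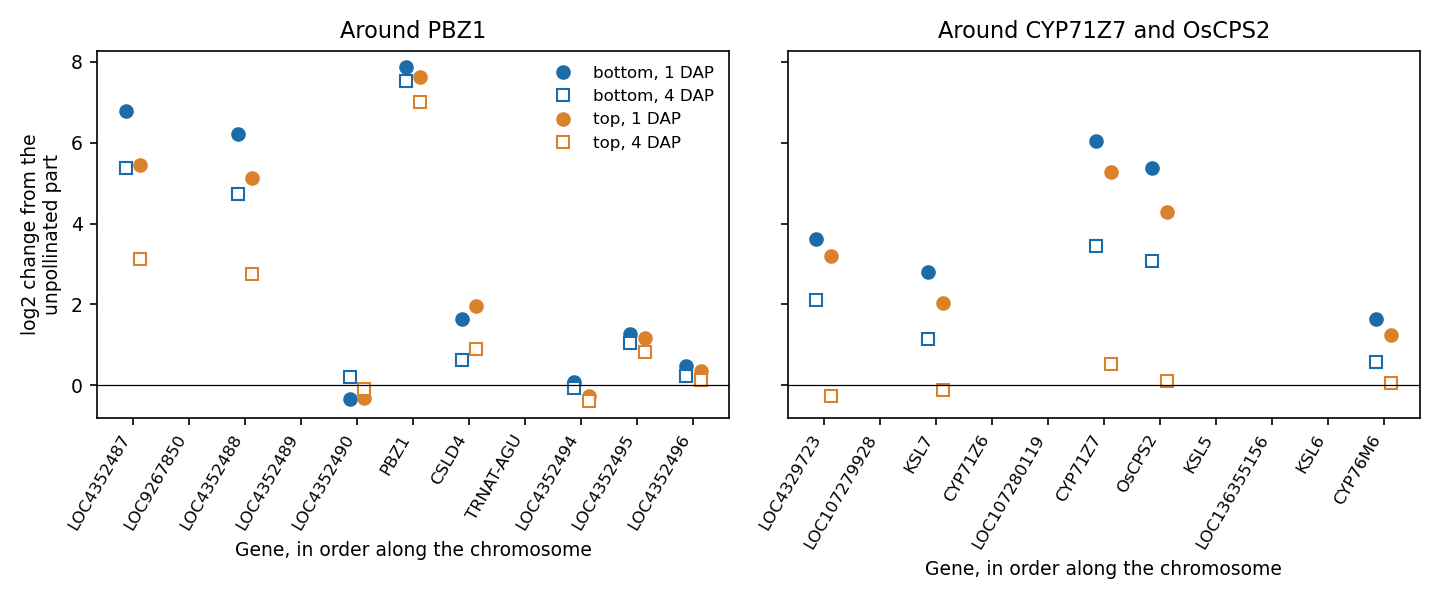
Log2 change from the unpollinated group of the same part at 1 DAP (filled circles) and 4 DAP (open squares) for the genes around PBZ1 (left) and around CYP71Z7 and OsCPS2 (right), in RefSeq gene order, with blue for the bottom and orange for the top part. LOC4352487 and LOC4352488 rose with PBZ1. Genes without a point had no tested probe set.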

How the data were processed

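Total RNA of rice ovary parts was hybridised to Affymetrix rice arrays, 1 sample an array, and read with GCOS 1.3, per the submitters' processing notes. The authors deposited 1 linear intensity for each of 57381 probe sets, divided by the array's 75th percentile, as the values themselves show. The probe summary, background and detection steps: not given in the sources used here. The number of arrays limits the precision.

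Groups came from the labels. Of 57258 rice probe sets, 29332 whose mean exceeded 0.264, the overall median, entered the tests as log2(value + 0.13), where 0.13 is the 20th percentile. In R 4.3.3, limma 3.58.1 (lmFit, eBayes with trend) was fitted to 10 group means on all arrays, two-sided, with Benjamini-Hochberg adjustment and a threshold of 0.05, after testing on simulated data. Residual degrees of freedom were 17 and the prior 3.68. Probe sets were named through a platform table (22436 with 1 gene, 95 with several, 34727 with none), with RefSeq names. The brightest tested probe set stood for a gene. The 4 genes and all lists were chosen with earlier results of these data known. From each list the rule named the 2 largest called rises and falls. Figures used Python with matplotlib.

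Replicate numbers paired the bottom arrays at 2, 3 and 4 DAP with each other (every correlation of same-numbered deviations was 0.195 or more), and the unpollinated bottom arrays with those at 3 and 4 DAP (0.179 or more). They did not pair the other bottom groups or the 2 parts. In the top part, 1 and 2 DAP had 0.465 for both replicate numbers. With 2 arrays a group the deviations mirror each other, so this is 1 value and cannot show pairing. The other pairs of top groups ran from -0.546 to 0.335. Alternatives covered pseudocount, filter, quantile normalization, arrays fitted, an 18S covariate, the replicate block, the prior and left-out arrays. The plan named 1 18S covariate without saying which of 2 control probe sets. The second was added after results with the first were seen, and both are reported.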

Additional observations from a re-analysis of the deposited data

Results flagged for a closer look

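Of the genes beside PBZ1, 2 changed differently in the 2 parts by the test of the difference itself (limma, adjusted over all probe sets). For LOC4352487 the change from the unpollinated stage to 3 DAP was smaller in the top than in the bottom part by -3.23 on the log2 scale. For LOC4352488 the same difference was -2.08 at 3 DAP and -1.98 at 4 DAP. No group had more than 3 arrays, so single arrays were not tested as outliers.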

How the results depend on the processing

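No called result changed sign. Some that were not called did when single arrays were left out: from 2 to 4 DAP, PBZ1 top ran from -0.42 to 0.70, CYP71Z7 bottom from -1.59 to 0.60 and OsCPS2 bottom from -1.51 to 0.22, and OsWRKY76 between the parts at 4 DAP from -0.80 to 0.40. Of 920 described values of the 4 genes 50 moved by more than the replicate spread, such as OsWRKY76 top 3 DAP from unpollinated (1.39 to 3.43). For the 4 genes, 741 of 784 tested values kept their side of the threshold, 30 lost it and 13 gained it; of 406 values for named list genes, 383 kept it and 23 lost it. From 2 to 4 DAP in the top part, calls were gained with only the arrays compared for OsWRKY76 (-1.55, adjusted p = 0.00615) and CYP71Z7 (-1.82, adjusted p = 0.0353), and without bottom replicates 3 of 2, 3 and 4 DAP for CYP71Z7 (-1.82, adjusted p = 0.00755) and OsCPS2 (-1.42, adjusted p = 0.0333). At 4 DAP the difference between the parts was lost with only the arrays compared for CYP71Z7 (-3.02, adjusted p = 0.212) and OsCPS2 (-2.96, adjusted p = 0.167), and under quantile normalization for CYP71Z7 (-2.81, adjusted p = 0.0630). Leaving out single arrays gave -4.26 to -2.08 for CYP71Z7 and -3.95 to -2.22 for OsCPS2. Of the phytoalexin counts, bottom 3 DAP (5) became 0 with 4 times the pseudocount, 3 without the filter, 3 with the replicate block on the bottom arrays only and 0 on those arrays without it, and 0 to 5 with single arrays left out. Bottom 4 DAP (7) became 2 with only the arrays compared and 4 to 8 with arrays left out. Top 2 DAP (0) became 1 with a pseudocount of 0.0325, 1 with either 18S probe set as covariate, and 2 without those bottom arrays or with only the arrays compared. Top 4 DAP (0) became 1 under quantile normalization and 0 to 1 with arrays left out. The causes were not tested. With the replicate block in limma, OsWRKY76 in the bottom part from 2 to 4 DAP changed only in its adjusted p (0.411 to 0.179). Between the parts at 3 DAP the block ended the call for PBZ1 (-1.69, adjusted p = 0.0503). It gave one for CYP71Z7 there (-2.85, adjusted p = 0.0418). Replicate numbers did not pair the 2 parts, so these shifts between the parts cannot be credited to pairing. Each of the 4 genes has 1 probe set, so the alternative with another probe set could not be run.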
